A study of Rattus norvegicus with 352 samples.

Results

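Among polyA RNA libraries of whole brain hemispheres from naive, untreated heterogeneous stock rats, an outbred population made by crossing inbred strains, 45 had a low level of Dbp, a transcription factor gene driven directly by the circadian clock. Low meant a level below 6.9 and high a level of at least 7.1, where a level is log2(CPM + 1) and CPM is the estimated count after scaling each library to a total of 1000000. The low group was 13.2% of all libraries and the high group 79.8%, or 6.07 libraries for each low one, and the 24 libraries between the limits, 7.02%, were left out of the tests. Both groups are labelled alike, as untreated whole brain hemisphere of outbred rats, and were selected by the level of Dbp itself, so Dbp is described without a test. The sources used here state no collection time, light schedule, age or sex. Whether every library came from a separate rat is not spelled out either, so p-values refer to the spread from library to library, which may in part be technical.

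The circadian clock is a feedback loop of transcription found in nearly every cell, brain cells included. BMAL1 with CLOCK or its relative NPAS2 binds E-box sequences and activates the period genes, the cryptochromes, the REV-ERB receptor genes, Ciart, Bhlhe40, Bhlhe41 and the PAR bZIP genes Dbp, Tef and Hlf. PER and CRY proteins, CIART and the BHLHE factors hold that activity back, the REV-ERB receptors repress Bmal1 and Nfil3 through sites that the ROR receptors also bind, and PAR bZIP factors and NFIL3 act in opposite directions on D-box sequences. Genes of the E-box arm and Bmal1 therefore peak at opposite parts of the day in many tissues.

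The promoters of members from both arms of this loop are shown because they carry the sites named above. Each runs over the 250 bases before a start site, taken from RefSeq on the assembly GRCr8, and capitals mark the motifs found. Motifs were searched on both strands: the E-box CACGTG, the variant CACGTT called E'-box here, the D-box as TTATGTAA or TTACGTAA, and the core of the ROR element as TAGGTCA or TGGGTCA. Ciart (chr2:186112247-186112496, minus strand) holds 3 E-boxes, beginning 93, 35 and 21 bases before the start.
Ciart: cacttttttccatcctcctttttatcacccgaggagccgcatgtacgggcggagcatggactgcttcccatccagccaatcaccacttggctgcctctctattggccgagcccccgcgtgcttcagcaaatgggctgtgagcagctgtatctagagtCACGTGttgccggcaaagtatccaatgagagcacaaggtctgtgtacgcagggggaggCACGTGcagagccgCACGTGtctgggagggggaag
Bhlhe41 (chr4:180569356-180569605, minus strand) holds 1 E-box, 48 bases before the start.
Bhlhe41: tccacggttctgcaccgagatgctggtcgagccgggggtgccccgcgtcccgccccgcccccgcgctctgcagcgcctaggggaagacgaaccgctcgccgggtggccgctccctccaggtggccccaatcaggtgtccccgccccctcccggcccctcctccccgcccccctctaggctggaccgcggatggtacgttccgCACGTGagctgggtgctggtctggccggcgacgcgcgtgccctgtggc
Per2 (chr9:99496994-99497243, minus strand) holds a D-box and, nearer to the start, an E'-box beginning 62 bases before it.
Per2: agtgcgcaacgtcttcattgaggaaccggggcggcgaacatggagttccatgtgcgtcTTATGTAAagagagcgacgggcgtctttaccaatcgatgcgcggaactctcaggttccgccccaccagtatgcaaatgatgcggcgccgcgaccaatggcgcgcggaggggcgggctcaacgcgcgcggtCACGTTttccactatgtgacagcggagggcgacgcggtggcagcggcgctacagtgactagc
Bmal1 (chr1:176766078-176766327, plus strand) holds the ROR element core 16 bases before the start.
Bmal1: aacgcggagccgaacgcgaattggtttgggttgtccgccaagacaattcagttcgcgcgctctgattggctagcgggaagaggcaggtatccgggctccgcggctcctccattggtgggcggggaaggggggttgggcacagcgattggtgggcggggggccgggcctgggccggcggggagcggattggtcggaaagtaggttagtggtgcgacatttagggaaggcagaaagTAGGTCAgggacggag
The start in the table lay inside the annotated gene by 1532 bases for Ciart, 60 for Bhlhe41 and 76 for Per2, and Bmal1's lay inside its gene as well, so other start sites lie further out.

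An E-box stood in 4 of the 18 clock gene promoters in the table (Ciart, Bhlhe40, Bhlhe41 and Tef) and in 7.8% of the 13541 promoters of tested genes. The E'-box stood in 4 (Cry2, Bmal2, Per2 and Nr1d1) against 4.56% of promoters, the D-box in 1 (Per2) against 0.635%, and the ROR core in 1 (Bmal1) against 4.56%. The windows of Dbp, Per3 and Nr1d2 held none of these letters, which says nothing about sites elsewhere. A match is a string of letters and not a measured binding site.

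Depth and origin of the libraries were set side by side before the comparison. Totals ran from 5418230 to 42980793 estimated counts, with medians of 21138754 in the low and 21986826 in the high group, and the median share of ribosomal RNA genes was 0.548% and 0.519%. No library repeated another: over tested genes, r for pairs of libraries was 0.991 at the median and 0.995 at most. One high-Dbp library, brain 4, stood somewhat apart with a median r of 0.982, and the labels note a corrected exchange of names for 14 libraries, 12 of them compared here. Leaving out either changed no call among the clock genes. Library identifiers fall into 10 blocks by their first 6 characters, the only label that could mark a batch, and low-Dbp libraries occurred in 9 of them. In the 7 blocks of at least 8 libraries their share ran from 5.56% to 25%. Xist, expressed from the inactive X of females, exceeded the Y-linked Ddx3y in 17 of 45 low (37.8%), 11 of 24 between (45.8%) and 54.6% of the high libraries. The shares of the low and high libraries did not differ past the threshold (two-sided Fisher's exact test, p = 0.0524). Xist itself differed by -1.52 (limma adjusted p = 0.132) and Ddx3y by 1.02 (adjusted p = 0.138).

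Dbp (chromosome 1, 105312256 to 105317205, GRCr8) had a lowest, median and highest level of 6.20, 6.58 and 6.89 in the low group and of 7.1002, 7.47 and 7.90 in the high group. The means were 6.56 ± 0.19 (SD, n = 45) and 7.47 ± 0.17 (SD) in the high group, 1.88-fold apart in CPM + 1, the scale of all folds given here. That separation was set by the choice of libraries. Just inside the low limit stood 6.85, 6.86 and 6.89, and the lowest library left out stood at 6.9015. The highest library left out stood at 7.07, and the lowest of the high group at 7.1002, 7.1004 and 7.1037. The values thus ran on across both limits without a gap.

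**Figure D1:**
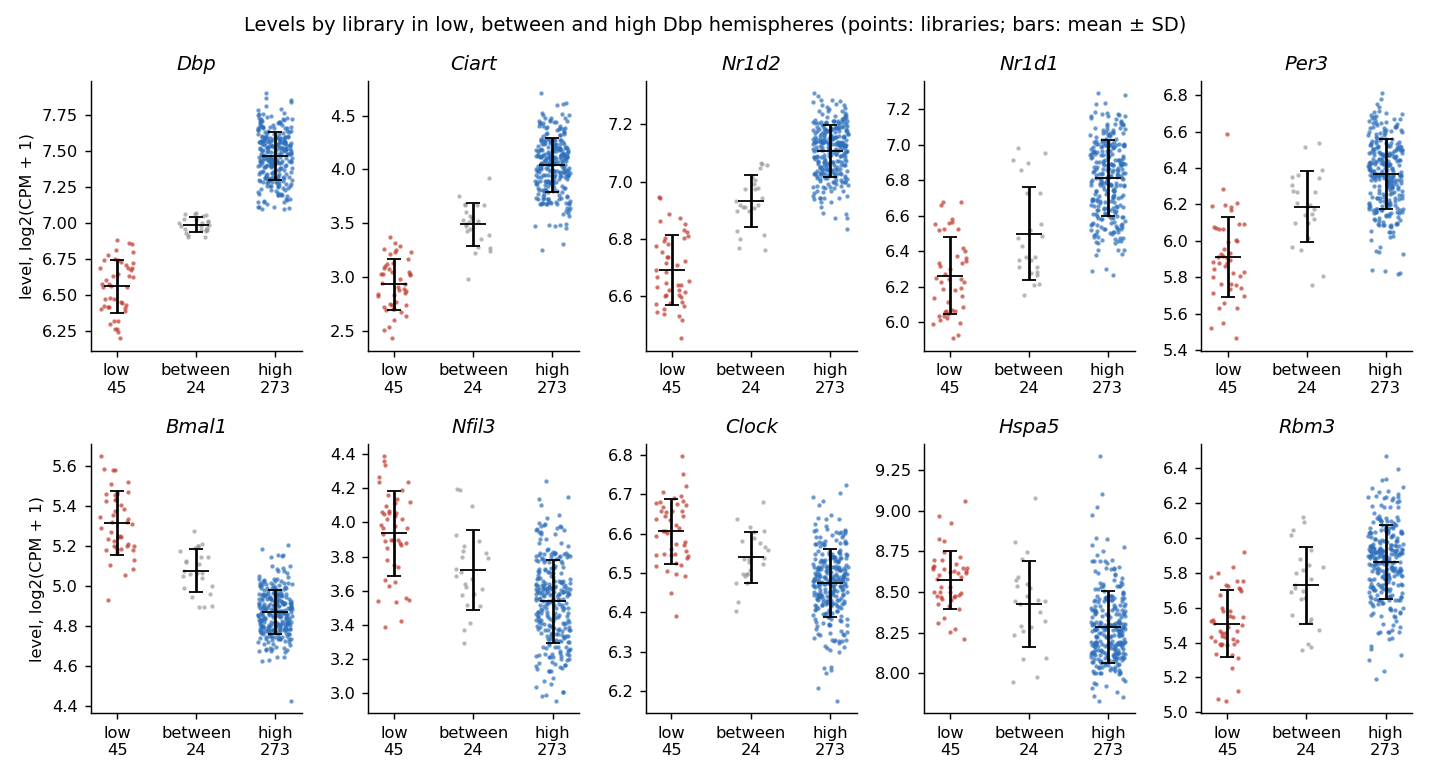
Level, log2(CPM + 1), of 10 genes in each library, with the low, between and high Dbp groups on the x axis (45, 24 and the remaining libraries); points are libraries and bars are mean ± SD. Dbp chose the groups; Ciart fell from a mean of 4.04 in the high to 2.93 in the low group, and Bmal1 rose from 4.87 to 5.31.

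Repressors of the loop were lower where Dbp was low. Ciart (chromosome 2, 186108744 to 186113778), whose protein binds BMAL1 and holds back E-box transcription, had a lowest, median and highest level of 2.43, 2.93 and 3.37 in the low group and of 3.25, 4.05 and 4.71 in the high group. Its mean fell from 4.04 ± 0.25 (SD, high group) to 2.93 ± 0.24 (SD, n = 45), a difference of -1.11 ± 0.04 (SE) on the log2 scale or 2.16-fold in CPM + 1 (limma adjusted p = 4.19e-83). The fold in CPM itself is larger for a gene of this level. The groups touched only at their edges: 41 of 45 low libraries were under every high library, and all but 2 of the high libraries were above every low one. The 24 libraries in between had a median of 3.52, between the medians of the groups. In bulk tissue, fewer cells that express a gene and less RNA per cell cannot be told apart.

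The REV-ERB receptor genes, nuclear receptors that bind haem and repress Bmal1, were both lower. Nr1d2 (chromosome 15, 9955034 to 9981329) had a lowest, median and highest level of 6.45, 6.67 and 6.95 in the low and 6.84, 7.12 and 7.31 in the high group. Its difference was -0.42 ± 0.02 (SE, adjusted p = 8.04e-82), and 39 of 45 low libraries were under every high one. Nr1d1 (chromosome 10, 84224599 to 84231812) had 5.91, 6.24 and 6.68 against 6.27, 6.83 and 7.29, a difference of -0.55 ± 0.03 (SE, adjusted p = 5.76e-40) or 1.46-fold. Its groups overlapped more than those of Nr1d2, since 25 of 45 low libraries were under every high one, and the sizes of these differences were not tested against each other. All 45 low libraries were under the high median for both receptors.

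All 3 period genes, whose proteins carry the negative limb of the loop, were lower. Per3 (chromosome 5, 166740914 to 166778243) had a lowest, median and highest level of 5.46, 5.89 and 6.58 in the low and 5.82, 6.37 and 6.81 in the high group. It differed by -0.45 ± 0.03 (SE, adjusted p = 6.52e-34), with 44 of 45 low libraries under the high median. Per2 differed by -0.34 ± 0.04 (SE, adjusted p = 2.72e-11) and Per1 by -0.30 ± 0.05 (SE, adjusted p = 9.55e-07). These last pairs of groups overlapped widely: the lowest high library stood at 5.20 for Per2 and 5.90 for Per1, below the low medians of 5.80 and 6.53. Per1 and Per2 also answer to hormones and neuronal activity in many cells.

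The basic helix-loop-helix repressor Bhlhe41 (chromosome 4, 180565003 to 180569415), which competes for E-boxes, had a lowest, median and highest level of 6.22, 6.46 and 6.696 in the low and 6.41, 6.79 and 7.09 in the high group. It fell by 0.31 ± 0.02 (SE, adjusted p = 2.96e-40), and 15 of 45 low libraries were under every high one. Its relative Bhlhe40 differed by -0.17 ± 0.03 (SE, adjusted p = 3.85e-09). The other PAR bZIP genes, activators at D-boxes like DBP, were lower as well: Tef by -0.20 ± 0.01 (SE, adjusted p = 8.92e-48) and Hlf by -0.14 ± 0.02 (SE, adjusted p = 2.36e-16). The difference for Tef was small in size, from a high median of 8.27 to a low median of 8.05, yet 43 of 45 low libraries were under the high median.

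The activating limb was higher in the same libraries. Bmal1 (chromosome 1, 176766222 to 176864741), the partner of CLOCK, had a lowest, median and highest level of 4.93, 5.31 and 5.65 in the low, 4.89, 5.07 and 5.27 in the between and 4.43, 4.87 and 5.21 in the high group. Its mean rose from 4.87 ± 0.11 (SD, high group) to 5.31 ± 0.16 (SD, n = 45), by 0.44 ± 0.02 (SE) or 1.36-fold (adjusted p = 9.28e-67). All 45 low libraries were above the high median and 31 were above every high library.

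Nfil3 (chromosome 17, 12432376 to 12447605), the D-box repressor that opposes DBP, had a lowest, median and highest level of 3.39, 3.97 and 4.39 in the low and 2.95, 3.55 and 4.24 in the high group, a difference of 0.40 ± 0.04 (SE, adjusted p = 1.58e-18). The groups overlapped, with 40 of 45 low libraries above the high median. Npas2 was higher by 0.18 ± 0.02 (SE, adjusted p = 9.64e-11) and Clock by 0.13 ± 0.01 (SE, adjusted p = 1.57e-16). Clock stood at a median of 6.61 in the low and 6.48 in the high group.

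Cryptochromes and the ROR receptor genes given here moved little. Cry2 was lower by -0.08 ± 0.01 (SE, adjusted p = 5.68e-10) and Rora, the activator at ROR elements, by -0.07 ± 0.02 (SE, adjusted p = 0.00305). Cry1, which has a later phase than the other repressors in many tissues, was not called: its difference was 0.05 with a 95% interval from -0.01 to 0.12 (adjusted p = 0.313). Also not called were Bmal2 at -0.05 (interval -0.12 to 0.02, adjusted p = 0.405) and Rorb at -0.05 (interval -0.10 to -0.0008, adjusted p = 0.161, called in 1 of 15 alternatives, with 5 principal components as covariates). These intervals leave room for differences smaller than those of the called genes Bmal1, Nfil3 and Npas2.

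Of the 20 clock genes other than Dbp, 16 were called, 12 lower and 4 higher in the low group. Over all 16682 genes tested, 18.1% were called, 11.4% lower and 6.73% higher, with a median difference of -0.01 and a 5th and 95th percentile of -0.09 and 0.07. Calls alone are frequent with this many libraries, and 73.4% of the called genes differed by less than 0.1. With a difference of at least 0.2 also required, 10 of the 20 clock genes were called, 8 lower and 2 higher, against 0.312% lower and 0.282% higher over all genes. Markers in this set, Ciart, Per3 and Nr1d2, were picked with earlier results of these data known, so their direction is no independent evidence. When libraries were scaled by the median ratio instead of the total, 1388 genes were lower and 1510 higher in place of 1895 and 1122, a shift of 0.01 in the median that left the direction of all called clock genes as it was. In 15 of the 16 called clock genes the mean of the between libraries lay between the means of the groups, Rora being the exception. Being called already means a difference between the groups, and the same was not counted over all called genes.

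**Figure D2:**
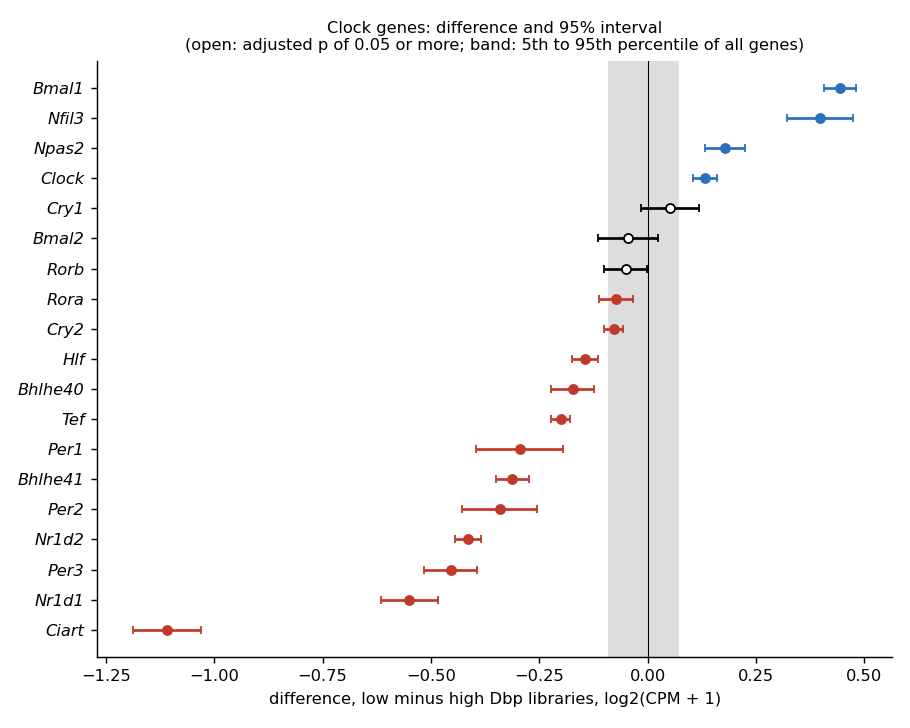
Difference in mean level, low minus high Dbp libraries, log2(CPM + 1), for 19 of the clock genes with 95% intervals; the grey band spans the 5th to 95th percentile of all tested genes, from -0.09 to 0.07. Ciart lies farthest to the left at -1.11 and Bmal1 farthest to the right at 0.44, and the 3 open symbols are genes not called.

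The relation of each clock gene to Dbp was also measured inside each group, in 40 relations. These use the same Dbp levels that chose the groups, so they are a description and no independent evidence for the differences between groups. Relations were not computed for genes outside the clock lists, so the counts below have no share over all genes beside them. Past the threshold after Benjamini-Hochberg adjustment were 9 of 20 in the low group, 6 positive and 3 negative, and 12 of 20 in the high group, 8 positive and 4 negative. Of the 12, 5 changed sign between identifier blocks: r ran from -0.24 to 0.40 for Tef, from -0.16 to 0.56 for Per1, from -0.40 to 0.39 for Per3, from -0.56 to 0.21 for Clock and from -0.70 to 0.09 for Npas2. Both genes of a pair are scaled by the same library total. Ciart followed Dbp in the low group with r = 0.65 and rho = 0.67 (permutation p = 1e-05 for each, the smallest that 100000 permutations can give; adjusted p = 3.64e-05 for r) and in the high group with r = 0.77 and rho = 0.77 (permutation p = 1e-05 for each). Without the 2 libraries farthest from the Dbp median, r was 0.64 and 0.78. Within identifier blocks r ran from 0.45 to 0.67 in 2 blocks of low libraries and from 0.31 to 0.87 in 6 blocks of high libraries.

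Bmal1 ran against Dbp in both groups, with r = -0.75 and rho = -0.71 in the low group and r = -0.40 and rho = -0.40 in the high group (permutation p = 1e-05 for each). Without the 2 farthest libraries r was -0.72 and -0.39, and within blocks it ran from -0.77 to -0.71 and from -0.62 to -0.28. Nr1d2 followed Dbp in the low group with r = 0.69 and rho = 0.71, and in the high group with r = 0.51 and rho = 0.51 (permutation p = 1e-05 for each). Without 2 libraries these were r = 0.65 and 0.51, and within blocks r ran from 0.63 to 0.75 and from 0.21 to 0.64.

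Nr1d1 had no relation past the threshold in the low group, with r = 0.09 (permutation p = 0.558) and rho = 0.08 (permutation p = 0.623), and r = 0.59 with rho = 0.59 in the high group (permutation p = 1e-05 for each). Without 2 libraries r was 0.06 and 0.59, and within blocks it ran from 0.00 to 0.46 and from 0.52 to 0.81. Hlf was past the threshold in the low group, with r = 0.50 (permutation p = 0.00043) and rho = 0.53 (permutation p = 0.00032), and not in the high group, with r = 0.09 (permutation p = 0.147) and rho = 0.05 (permutation p = 0.443). The difference in r between the groups was not tested, and the high group has more libraries.

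**Figure D3:**
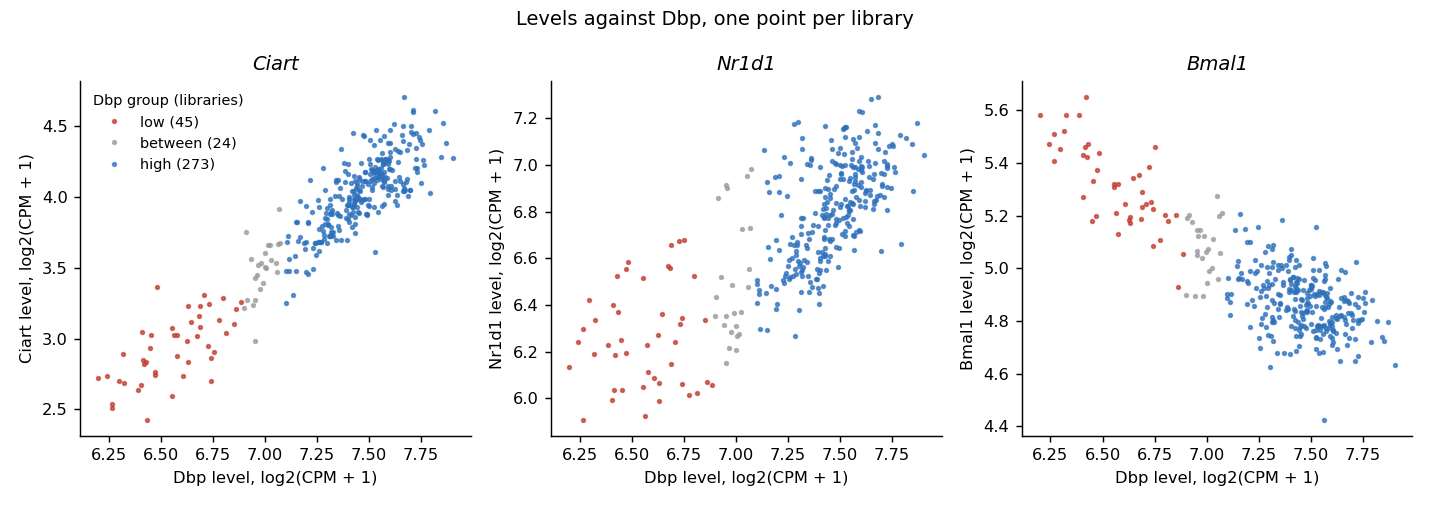
Level of Ciart, Nr1d1 and Bmal1 against the level of Dbp, both as log2(CPM + 1), with 1 point per library coloured by Dbp group. Ciart climbs with Dbp within the low (r = 0.65) and high (r = 0.77) groups, Nr1d1 has r = 0.09 in the low and 0.59 in the high group, and Bmal1 falls in both (r = -0.75 and -0.40).

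The differences were present in each of the 4 identifier blocks that held at least 3 low and 3 high libraries. Ciart differed by -1.19 to -1.01 across the blocks, Nr1d1 by -0.58 to -0.45, Nr1d2 by -0.45 to -0.33, Per3 by -0.59 to -0.42 and Bmal1 by 0.38 to 0.49. Nfil3 varied more, from 0.24 to 0.57, and Per2 from -0.42 to -0.12. For the interaction of Dbp group with block, limma's F-test called 0 of 16682 genes, and 1300 had an unadjusted p under 0.05. No other tool was run on the interaction.

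**Figure D4:**
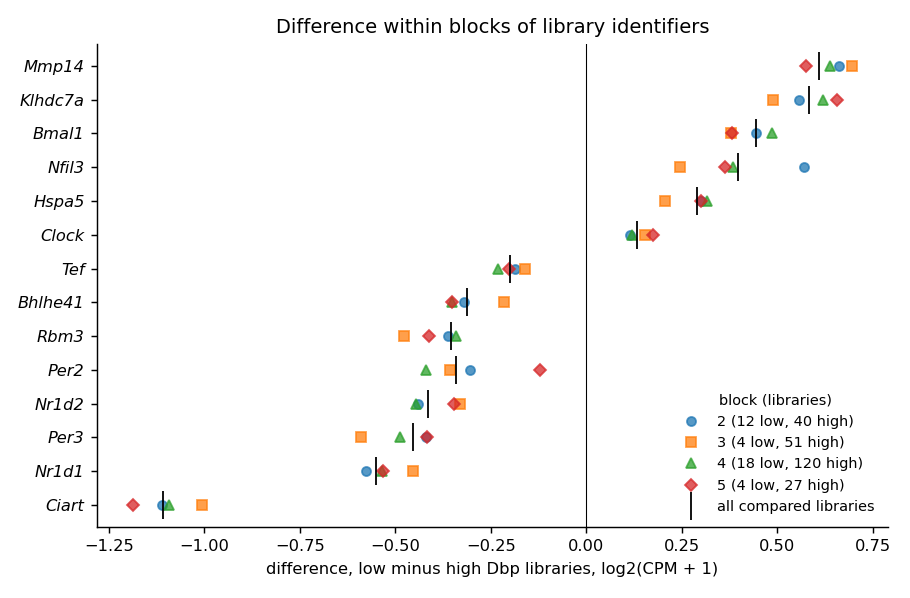
Difference in mean level, low minus high Dbp libraries, log2(CPM + 1), of 14 genes within each of 4 blocks of library identifiers (symbols) and over all compared libraries (bars). Every symbol lies on the same side of 0 as its bar; Ciart runs from -1.19 to -1.01 and Bmal1 from 0.38 to 0.49.

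Known output genes of the clock, from a list of genes reported as rhythmic in several tissues, had 13 of 29 members lower and 3 higher. Over all genes, 11.4% were lower and 6.73% higher. The median difference of the list was -0.04. Usp2 (chromosome 8, 53308264 to 53336800), a deubiquitinating enzyme, had a lowest, median and highest level of 5.72, 5.92 and 6.21 in the low and 5.82, 6.24 and 6.56 in the high group. It differed by -0.29 ± 0.02 (SE, adjusted p = 8.72e-45), and all 45 low libraries were under the high median. Fmo2, a flavin-containing monooxygenase of low level here, differed by -0.40 ± 0.07 (SE, adjusted p = 1.95e-06) and Hif3a, a hypoxia-inducible factor subunit, by -0.29 ± 0.08 (SE, adjusted p = 0.00609). The other lower members were Wee1, Tspan4, Por, Nampt, Coq10b, Klf9, Klf15, Tsc22d3, Cys1 and Rgs16, and the higher ones were Rasd1, Leo1 and Ypel2.

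A list of kinases, ubiquitin ligases and other genes acting on clock proteins had 3 of 12 members called, against 18.1% over all genes. Csnk1e and Usp2 were lower and Btrc higher by 0.06 (limma adjusted p = 3.17e-06), and the median difference of the list was 0.00. Usp2, the deubiquitinating enzyme, is counted among the output genes as well. Of 7 tested neuropeptide and factor genes of the suprachiasmatic nucleus, the master clock of the hypothalamus, Rasl11b was lower by -0.16 (adjusted p = 1.08e-09) and Vip higher by 0.08 (adjusted p = 0.0121). Avp, a vasopressin gene with rhythmic expression there, was not called at -0.11 (adjusted p = 0.249). Vip and Avp are also made by many cells outside that nucleus.

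The 15 named genes of largest difference in each direction held 9 clock genes, 7 among the lower and 2 among the higher. The largest increase was that of Mmp14 (chromosome 15, 31857824 to 31867049), a membrane-bound matrix metalloproteinase, with a lowest, median and highest level of 2.99, 3.71 and 4.36 in the low and 2.50, 3.14 and 3.86 in the high group. It was higher by 0.61 ± 0.04 (SE, adjusted p = 9.19e-37), and 44 of 45 low libraries were above the high median. Klhdc7a (chromosome 5, 157501740 to 157507843), a kelch-domain gene, had 3.77, 4.30 and 4.70 against 3.04, 3.70 and 4.28, a difference of 0.58 ± 0.04 (SE, adjusted p = 5.43e-39). It separated the groups more cleanly than Mmp14, with 23 of 45 low libraries above every high one.

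Cdkn1a (chromosome 20, 7150820 to 7161373), the cell-cycle inhibitor p21, had a lowest, median and highest level of 3.40, 4.14 and 5.03 in the low and 2.81, 3.59 and 4.598 in the high group, 0.57 ± 0.06 (SE) apart (adjusted p = 4.45e-19). Tgm2, a transglutaminase that crosslinks proteins, was higher by 0.49 ± 0.04 (SE, adjusted p = 3.66e-26). The next were Cryab, a small heat shock protein of glia, by 0.36, Slc6a13, a GABA and taurine transporter of the meninges, by 0.33, Mt2A, a metallothionein, by 0.32, and Htra1, a secreted protease, by 0.29. Nwd1, Parvb, which links integrins to actin, and Slc25a34, a mitochondrial carrier, were higher by 0.27 to 0.28. For each of these 7 genes at least 36 of 45 low libraries were above the high median.

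Of the lower genes outside the clock, Rbm3 (chromosome X, 17020863 to 17024341), an RNA-binding protein induced by cold, had a lowest, median and highest level of 5.06, 5.49 and 5.92 in the low and 5.19, 5.88 and 6.47 in the high group. It was lower by 0.35 ± 0.03 (SE, adjusted p = 7.96e-20), and 44 of 45 low libraries were under the high median. Ephx1, the microsomal epoxide hydrolase, differed by -0.32 ± 0.04 (SE, adjusted p = 1.1e-11), Ifrd2 by -0.29 ± 0.03 (SE, adjusted p = 6.05e-22), Epm2a, the glycogen phosphatase laforin, by -0.27 ± 0.03 (SE, adjusted p = 2.85e-14) and Tinagl1, a matrix protein, by -0.27 ± 0.05 (SE, adjusted p = 5.22e-07). Apold1, an early gene of endothelium, differed by -0.33 ± 0.12 (SE, adjusted p = 0.0321), and its call was lost under 4 of the 15 alternatives, the identifier block as covariate among them. In 27 of these 30 genes the mean of the between libraries lay between those of the groups, the exceptions being Apold1, Hif3a and Mt2A. The 30 were picked for large differences between the groups, and no share of all called genes stands beside this count.

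**Figure D5:**
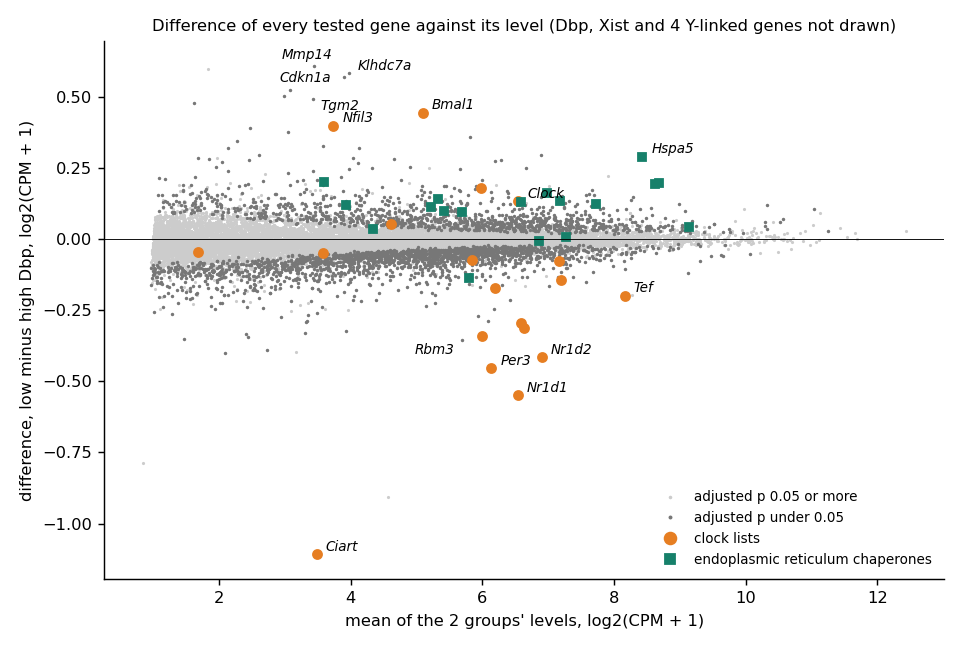
Difference in mean level, low minus high Dbp libraries, on the y axis against the mean of both groups' levels, log2(CPM + 1), for every tested gene except Dbp, Xist and 4 Y-linked genes. Genes of the clock lists and of the endoplasmic reticulum chaperone list are coloured. Ciart lies lowest at -1.11 and Mmp14 highest at 0.61.

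Of 12 heat shock genes and chaperones, 8 were higher and 0 lower, with a median difference of 0.09. Of 4 cold-inducible RNA-binding genes, 2 were lower, Rbm3 and Cirbp, the latter by -0.12 (adjusted p = 0.000584), and 0 higher. Over all genes, 6.73% were higher and 11.4% lower. The calls of Cirbp and of Hspb1, a small heat shock gene, were lost with the scores of 4 lists as covariates, where their differences were -0.03 and 0.02. Hspb1 is itself a member of the heat shock score. Among the 12 heat shock genes and chaperones, which leave out Cryab, the largest difference belonged to Hspa5 (chromosome 3, 38453016 to 38457475). Hspa5, the main chaperone of the endoplasmic reticulum, had a lowest, median and highest level of 8.21, 8.59 and 9.06 in the low and 7.83, 8.26 and 9.34 in the high group. It was higher by 0.29 ± 0.03 (SE, adjusted p = 3.26e-13), and 43 of 45 low libraries were above the high median. The inducible Hspa1b was not called, at 0.15 (adjusted p = 0.378), nor was the splicing factor gene Srsf5 of the cold-inducible list, at -0.02 (adjusted p = 0.824).

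A list called endoplasmic reticulum chaperones was then counted, chosen after the values were seen. Besides chaperones it holds the transcription factor genes Xbp1, Atf4 and Ddit3 and the degradation factor gene Herpud1. Of 18 genes, 14 were higher and 1 lower, against 6.73% and 11.4% of all genes, with a median difference of 0.12. Calr, a lectin chaperone that binds calcium, had a lowest, median and highest level of 8.63, 8.77 and 8.96 in the low and 8.26, 8.58 and 9.08 in the high group, a difference of 0.20 ± 0.02 (SE, adjusted p = 1.16e-21). Hsp90b1, the reticulum's HSP90, had 8.52, 8.72 and 8.90 against 8.16, 8.51 and 9.13, a difference of 0.19 ± 0.02 (SE, adjusted p = 1.43e-18). All 45 low libraries were above the high median for both, though single high libraries reached further up. Pdia6, a disulphide isomerase, was higher by 0.16, Hyou1 by 0.13 and Pdia3 by 0.12, while P4hb, Atf4 and Ddit3 were not called and Herpud1, a factor of reticulum protein degradation, was lower by -0.14 (adjusted p = 2.79e-09). With the scores of the immediate early, glucocorticoid, heat shock and endothelial lists as covariates, an alternative chosen after seeing the data, 7 of the 15 calls were lost (Canx, Creld2, Dnajc3, Manf, Pdia4, Sdf2l1 and Xbp1) and the difference for Hspa5 went from 0.29 to 0.14; Hspa5 is itself a member of the heat shock score.

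The promoters of Hspa5 and Hsp90b1 are shown because they hold the endoplasmic reticulum stress element. It stood in 7 of the 15 promoters available for the chaperone list, Xbp1 included, against 0.126% of the 13541 promoters. The element was searched on both strands as CCAAT, 9 bases of any kind and CCACG. In Hspa5 (chr3:38452766-38453015, plus strand) it begins 43 bases before the start.
Hspa5: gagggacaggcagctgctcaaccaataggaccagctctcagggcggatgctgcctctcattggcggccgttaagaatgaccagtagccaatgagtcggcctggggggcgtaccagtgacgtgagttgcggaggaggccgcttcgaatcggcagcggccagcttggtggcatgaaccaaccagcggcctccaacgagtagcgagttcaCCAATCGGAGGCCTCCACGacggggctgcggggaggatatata
In Hsp90b1 (chr7:23012294-23012543, minus strand) it stands forward in the first part of the window and again, in reverse orientation, 72 bases before the start.
Hsp90b1: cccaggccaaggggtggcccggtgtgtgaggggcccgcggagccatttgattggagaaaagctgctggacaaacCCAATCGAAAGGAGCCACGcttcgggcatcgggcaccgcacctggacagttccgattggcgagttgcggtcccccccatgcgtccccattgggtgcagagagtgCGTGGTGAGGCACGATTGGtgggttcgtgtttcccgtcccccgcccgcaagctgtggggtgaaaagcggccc
The other 5 were Creld2, Canx, Xbp1, Dnajc3 and Calr. Both the list and this motif were picked after the differences were seen, so the share is a description.

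Genes that rise with wakefulness, often used as marks of sleep pressure, had a median difference of 0.13. Of 8 members, 5 were higher and 0 lower, against 6.73% and 11.4% of all genes. The higher ones were Hspa5 and Cdkn1a, described above, with the synaptic scaffold gene Homer1, the neurotrophin gene Bdnf and Nptx2, a synaptic pentraxin, which was higher by 0.19 (adjusted p = 2.64e-06). Hspa5 is counted here and also in the heat shock and endoplasmic reticulum lists, so these lists are not separate. Immediate early genes of neuronal activity had 1 of 12 members higher and 0 lower, against the same 6.73% and 11.4%. That gene was Egr3, higher by 0.25 ± 0.04 (SE, adjusted p = 1.5e-07), while Arc stood at 0.19 (adjusted p = 0.25) and Junb at -0.16 (adjusted p = 0.145). Glucocorticoid target genes had 2 of 12 members lower, Tsc22d3 by -0.14 (adjusted p = 0.000466) and Klf9, and 1 higher, Cdkn1a, against 11.4% and 6.73% of all genes. Zbtb16 was not called at -0.15 (adjusted p = 0.0601).

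Markers of brain cell types and regions showed calls at about the rate of all genes. All 10 listed neuronal, 10 astrocyte and 10 oligodendrocyte genes passed the level minimum. Over 18 such lists, with each gene counted once and clock genes such as Rora left out, 11 genes were lower and 15 higher. That was 16.8% in all against the 18.1% of all genes, and the median absolute difference of the genes counted was 0.03. Of the neuronal and regional lists, no member was called in 12 cerebellar, 7 monoamine neuron and 2 pineal genes. Calls were 3 of 10 for neurons (Snap25, Map2 and Nefl higher), 2 of 10 for cortical and hippocampal excitatory neurons (Cux2 and Neurod2 lower), 1 of 10 for inhibitory neurons (Vip), 2 of 10 for striatal projection neurons (Pde10a and Penk higher), 1 of 10 for hypothalamus (Crh, the stress peptide gene, higher by 0.19, adjusted p = 5.9e-05) and 2 of 8 for thalamus and habenula (Rora and Gbx2 lower). Of these calls, Nefl was lost under 5 of the 15 alternatives, Map2 under 4, Gbx2 under 3 and Penk under 1, the identifier block as covariate being among those for Map2. The pineal gene Tph1 ranged widely in both groups, from 0.42 to 5.43 in the low and from 0.00 to 6.23 in the high group, without a call (adjusted p = 0.76).

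Of the glial lists, 1 of 10 astrocyte genes was higher (the connexin gene Gjb6, by 0.13, adjusted p = 0.000309), and 3 of 10 oligodendrocyte genes were lower (the myelin genes Cnp, by -0.12, adjusted p = 9.87e-07, Mog, by -0.06, and Mag, by -0.05). Oligodendrocyte precursor genes had Pdgfra, Olig1 and Olig2 higher and Vcan lower of 8, and microglial genes had Aif1 lower of 10. Of the vascular and lining lists, endothelium and pericytes had the VEGF receptor genes Kdr, by 0.19, and Flt1, by 0.13, higher and Rgs5 lower of 10. Choroid plexus had Sostdc1 lower of 10, by -0.26 (adjusted p = 1.91e-05), and meninges and fibroblasts had Slc6a13, Pdgfra and Col1a1 higher and Islr lower of 10. The call of Col1a1 was lost under 4 alternatives, that of Mag under 2 and that of Rgs5 under 1. Ependyma and red blood cells, with 6 tested genes each, had 0 called. Only Slc6a13 and Sostdc1 among the genes of these 18 lists differed by at least 0.2 and were called. The part of these cell type genes in the clock gene differences was not tested.

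Of 21 other protein-coding genes that start within 200 kb of Dbp on chromosome 1, 2 were lower and 3 higher, against 11.4% and 6.73% of all genes. Sphk2 (105317332 to 105324985), a sphingosine kinase gene on the opposite strand whose last exon faces that of Dbp, had a lowest, median and highest level of 5.33, 5.54 and 5.76 in the low and 5.0001, 5.36 and 5.62 in the high group. It was higher by 0.19 ± 0.02 (SE, adjusted p = 8e-26), opposite to Dbp, and 44 of 45 low libraries were above the high median. Whether counting used strand is not stated in the sources used here, so reads past either end could be assigned to the other gene. Kcnj14, a potassium channel gene, was higher by 0.14 and Bcat2, a branched-chain aminotransferase gene, by 0.12, while Sult2b1, a sterol sulphotransferase gene, differed by -0.17 and Rasip1, a vascular gene, by -0.15. On the other side of Dbp, Car11 (105306347 to 105311651) was not called at -0.07 (adjusted p = 0.221).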

How the data were processed

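PolyA RNA was measured in 342 libraries of frozen whole brain hemispheres: 45 with low, 24 with intermediate and 273 with high Dbp. The submitters' processing notes name kallisto for quantification, without a version, settings, reference or use of strand that the sources used here would state. The deposited table is on a log2 scale and was made by the authors from estimated counts, recovered here by raising 2 to the value and subtracting 1 (63.2% of values from 0.5 to 5 were then whole within 0.002). Counts were scaled to 1000000 per library (CPM) and levels are log2(CPM + 1), with a pseudocount of 1. Tests covered the 16683 of 38354 genes whose mean level reached 1, with limma 3.58.1 (moderated test with a mean-variance trend) and Benjamini-Hochberg adjustment over all of them except Dbp, and called at adjusted p under 0.05. Within-group relations used two-sided permutation tests (100000 permutations). The script was also tested on simulated data.

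The groups, gene lists and tests were chosen with earlier results of these data known. Names were drawn from all clock list members; the 15 of largest difference in each direction among called genes whose mean level reached 3 and that carry a gene name; up to 3 of each other list; genes within 200 kb of Dbp; Xist and Ddx3y. The text gives only some of them, and counts include those not reported here. The endoplasmic reticulum chaperone list was chosen after seeing the values of its genes. The cell type and region lists were neurons, cortical and hippocampal excitatory, inhibitory and striatal projection neurons, cerebellum, hypothalamus, thalamus and habenula, monoamine neurons, astrocytes, oligodendrocytes and their precursors, microglia, endothelium and pericytes, choroid plexus, ependyma, meninges and fibroblasts, red blood cells and pineal genes. Symbols were matched to RefSeq on GRCr8 for 38278 genes. Alternatives covered the pseudocount, the scaling, the level minimum, covariates, the Dbp limits and left-out libraries. The labels name 352 samples, of which 10 are not analysed here.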

Additional observations from a re-analysis of the deposited data

How the results depend on the processing

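The 16 clock genes called kept their direction and their call in all 15 alternatives, with 33 to 60 low-Dbp libraries compared. Between 2665 and 4031 genes were called, and no gene called in both settings had the opposite sign. The share of tested genes called with a difference of at least 0.2, 0.593% in the analysis reported, came to 1.23% with a pseudocount of 0.1, to 0.494% (58 genes in place of 99) when the mean level had to reach 3, to 0.346% (100 genes) when genes above 0 in 20% of libraries were tested, and to 0.953% with Dbp below 6.7 against at least 7.3; a smaller pseudocount widens differences of low genes, a higher level minimum tests fewer genes, and the wider limits drop the libraries nearest to each other. Of 2451 values of named genes under alternatives, 2368 kept direction and side of the threshold, 39 lost the call, 43 gained it and 1 reversed: Hspa1b went to -0.23 with 4 list scores as covariates, of which 1 holds Hspa1b itself. The mean scores of the immediate early, glucocorticoid, heat shock and endothelial lists were chosen as covariates after seeing the data, as was leaving out brain 4, the library that correlated least with the rest. How the totals limit genes of low level was not tested. No paired analysis was possible because the labels give a single group and the replicate numbers follow accession order.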

Other observations

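Genes induced by interferon were lower in the low-Dbp libraries in 4 of 9 tested members, with none higher and a median difference of -0.12, against 11.4% lower over all genes. The summed level of the 9 members was not lower, with a median of 6.39 in the low-Dbp and 6.37 in the high-Dbp libraries. Ifit3, an antiviral effector, had a lowest, median and highest level of 0.54, 1.33 and 1.87 in the low-Dbp libraries and of 0.73, 1.58 and 5.10 in the high-Dbp libraries. Its difference was -0.35 (limma adjusted p = 2.09e-05), and the groups overlapped. Mx1 differed by -0.16 (adjusted p = 0.0336) and Usp18 by -0.18 (adjusted p = 0.0365). Each of these last calls was lost under 3 alternatives, the identifier block as covariate among them.

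Genes of oxidative phosphorylation and cytosolic ribosomal proteins showed few calls beside the 18.1% of all genes called. Among oxidative phosphorylation genes 0 of 16 were called, with a median difference of 0.00, and among cytosolic ribosomal protein genes 1 of 18, Rpl3, at -0.04 (limma adjusted p = 0.00122). Of 13 cholesterol synthesis genes, 2 were lower, against 11.4% of all genes. They were Hmgcs1, the synthase that makes HMG-CoA, by -0.08 (adjusted p = 0.000216) and Insig1, which holds the sterol sensor in the endoplasmic reticulum, by -0.08 (adjusted p = 0.000799).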
